A study of Mus musculus with 70 samples.

Results

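Lysosomal proteases and hydrolases were compared between HAB and LAB mice in 7 brain regions. The genes were chosen by name, by a rule that uses no measured value: all spots of the array whose name begins with cathepsin, and all spots that carry the full name or the symbol of 1 of 36 listed lysosomal genes. Of the 36 listed genes 32 had a spot. The name cathepsin added Ctsj, Ctsm, Ctsq, Ctsr and Ctsw, which gave 37 genes with 50 probes among 22824 probes and 15191 distinct spot names. Ctso, Gaa, Gla and Fuca1 had no spot under these names and were not analysed here.

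HAB and LAB are lines of CD-1 mice bred for high and low anxiety-related behaviour, and the animals were untreated males, 10 weeks old. According to the paper, the mice had been tested on the elevated plus-maze and by tail suspension before they were killed. For the paraventricular nucleus (PVN), basolateral and lateral amygdala (BLA), central amygdala (CeA), nucleus accumbens (NAc), medial amygdala (MeA), cingulate cortex (Cg) and supraoptic nucleus (SON), RNA from tissue punches of 6 HAB mice was pooled, amplified in vitro and hybridized together with a pool of 6 LAB mice on spotted cDNA arrays of the type MPIP24k. Each pair of pools was run on 10 arrays, of which 5 carried the HAB pool in Cy3 and 5 in Cy5. The arrays of a region are thus repeats of 1 pair of pools, all regions came from the same mice, and no test given here measures the spread between mice. All values are log2 of the HAB over the LAB signal, so that a negative value is lower in HAB mice. In pooled tissue, fewer cells of a type and less RNA per cell cannot be told apart.

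Lysosomes are the acid compartment in which cells break down proteins, glycans and lipids delivered by endocytosis and autophagy. Cysteine cathepsins, the aspartic protease cathepsin D and serine peptidases such as TPP1 cleave proteins there, glycosidases and sulfatases shorten glycans, and lipases, ceramidase and sphingomyelinase act on membrane lipids with the help of saposins. Loss of single enzymes is known to cause lysosomal storage diseases, many of them with early damage to neurons. Many of these genes are induced together by the transcription factor TFEB, which binds an E-box in their promoters.

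Since TFEB sites are short, the promoter windows of the members were searched for the E-box core CACGTG, which reads the same on both strands. Of 32 member genes with a promoter in the RefSeq table of GRCm38.p6 (250 bases before to 50 after the start), 9 (28.1%) held the core, against 8.09% of all 27025 genes of that table. These were Ctsf, Ctsl, Lgmn, Ctsd, Ctsa, Glb1, Naglu, Arsa and Lamp1. The upstream stretches of Lamp1 and Glb1 are shown. Each held the core and had a probe that was lower in HAB on all 10 arrays of a region, as described further on. Tpp1, Ctss, Ppt1, Cd63 and Npc2 also had such a probe, but their windows held no core, and Ctsb had no window. A relation between the core and the line difference was not tested. Capitals mark the core.
Lamp1, chr8:13159060-13159145, plus strand: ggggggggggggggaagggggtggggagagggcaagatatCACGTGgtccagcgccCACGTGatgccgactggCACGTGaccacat
Glb1, chr9:114400990-114401075, plus strand: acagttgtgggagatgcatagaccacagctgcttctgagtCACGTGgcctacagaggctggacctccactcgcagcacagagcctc
Lamp1 has 3 cores in the stretch shown, the first of them 61 bases before the start, and Glb1 has 1, which begins 48 bases before the start. A match describes the letters of the reference and not a bound site, and the strains of the study may differ from it.

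Signal was limited. A probe was taken as above the empty spots where its log2 intensity exceeded their median by 2 median absolute deviations, and 15 of 50 member probes (30%) did so on at least 35 of 70 arrays in either line, close to the share of all probes (30.5%). The counts depend on this limit: set in the same way on the linear intensity, a choice made after seeing the data, it was passed by 32 member probes (64%) and 54.8% of all probes. Counts of arrays above the empty spots refer to the log2 limit unless the linear one is named. In PVN 35 member probes were above the empty spots on at least 5 of 10 arrays in either line, in NAc, MeA, Cg and SON 20 to 22, in BLA 10 and in CeA 9. Array medians ran from 151.2 to 2480.5 in Cy5 and from 135.2 to 1332.4 in Cy3. One CeA array (HAB in Cy3, replicate 4) stood apart, with the empty spots at 939.9 in Cy5 and 10 probes above them in the LAB channel, and the CeA results with all arrays on 1 side are given with and without it. Leaving it out moved the CeA mean of a member probe by at most 0.136, and the sign changed for Ctsh (0.01 to -0.09) and Neu1 (-0.01 to 0.09). Avp, which marks PVN and SON, was above the empty spots on 10 arrays in HAB and 8 in LAB of PVN, on 7 and 5 of SON and on at most 2 in each other region. In BLA the choroid plexus gene Ttr was lower in HAB (brightest probe -1.79 ± 0.50, SD, n = 10 arrays).

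Over the 7 regions the lysosomal genes lay slightly to the lower side in HAB mice, and Tpp1 was the member that passed the test. With the brightest probe of each gene, 26 of 37 genes (70.3%) had a mean below 0 and 11 a mean above 0, while 50.3% of all probes had a mean below 0. The median of the 37 genes was -0.046 with quartiles of -0.117 and 0.025, against -0.001 with quartiles of -0.063 and 0.063 for all probes. By limma over the 7 region means, with Benjamini-Hochberg adjustment over all probes, 1 of 50 member probes (2%) passed, in the lower direction. Over the whole array 0.302% of probes passed in either direction and 0.175% in the lower direction. At an unadjusted p under 0.05, 10 member probes (20%) passed against 6.33% of all probes. Of these 10, 7 were lower and 3 higher in HAB (Ctsb probe 3, Manba probe 2 and Psap probe 2), and 3 were probes of Ctsb with differing signs. The median of the members was 0.013 on the arrays with HAB in Cy3 alone, so its side depends on the dye orientation.

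**Figure D1:**
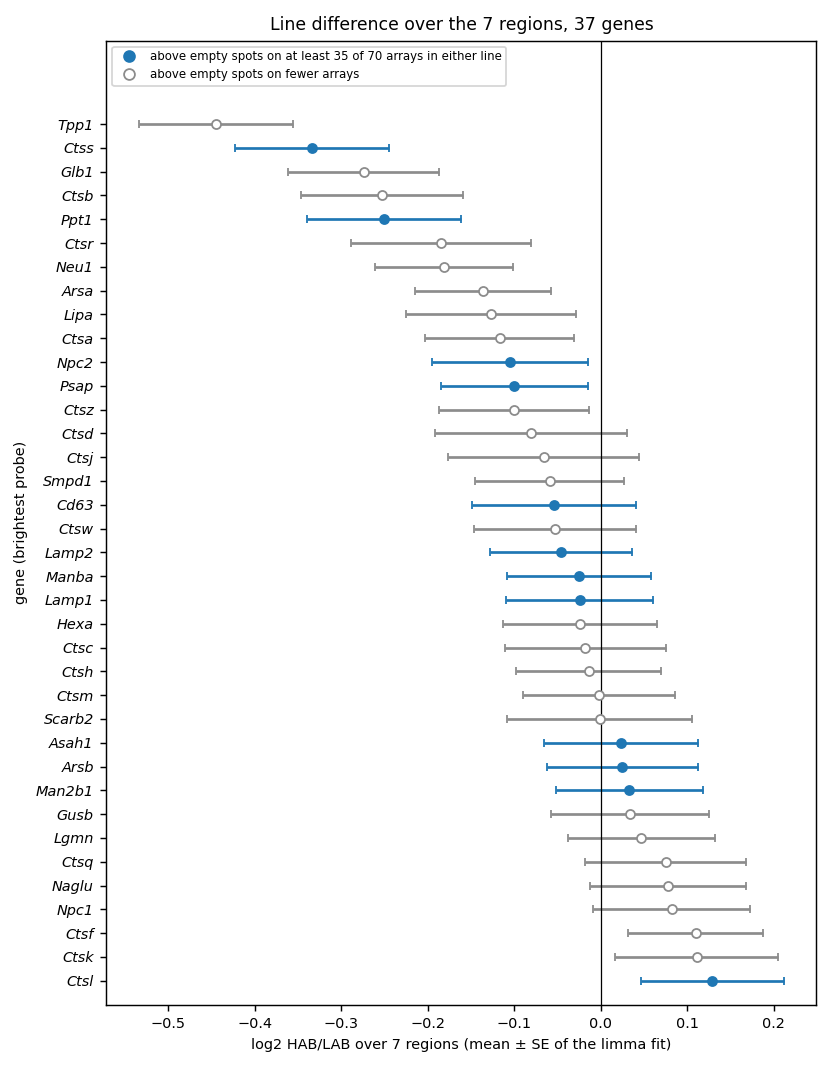
Mean log2 HAB/LAB over the 7 regions (x axis) with the SE of the limma fit for the brightest probe of each of the 37 genes (y axis, sorted). Filled points were above the empty spots on at least 35 of 70 arrays in either line. Tpp1 lies lowest at -0.45, followed by Ctss at -0.33, and 26 of the 37 points lie below 0.

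The region medians of the members ran from -0.121 in NAc to -0.002 in BLA, with those of all probes between -0.004 and 0.008. From 19 of 37 genes in BLA to 24 in CeA were lower in HAB.

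**Figure D2:**
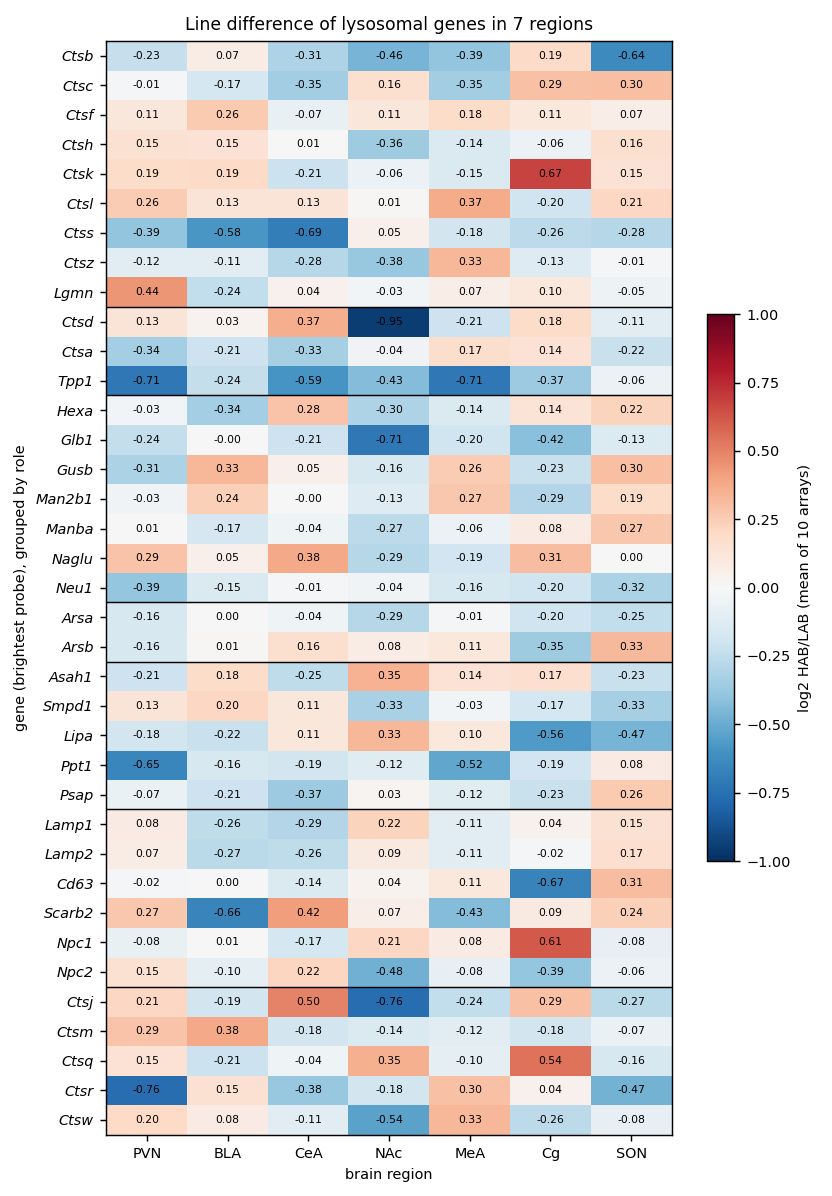
Log2 HAB/LAB (colour and printed value, mean of 10 arrays) of the brightest probe of each gene (rows, grouped by role and separated by lines) in each region (columns). The row of Tpp1 is negative in all 7 regions, and the most negative cell is Ctsd in NAc at -0.95, a probe at the level of the empty spots there.

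Cathepsin B, encoded by Ctsb (chr14:63122462-63145923, GRCm38.p6), is a cysteine protease with endopeptidase and exopeptidase activity. It was measured by 4 probes that did not give the same picture. By the log2 limit all of them were mostly at the level of the empty spots: in order of brightness they were above it on 10, 12, 4 and 0 of 70 arrays in the HAB channel and on 12, 16, 2 and 0 in the LAB channel. The brightest probe was -0.64 ± 0.39 (SD, n = 10 arrays) in SON, where single arrays ran from -1.20 over a median of -0.57 to -0.12 and all 10 were below 0. By the linear limit the 2 brightest were above it on 27 and 30 arrays in HAB and on 42 and 39 in LAB. No fold is given for SON, since neither line was above the empty spots on any array there.

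In the other regions the arrays of this Ctsb probe lay on both sides of 0. In NAc they ran from -1.74 over a median of -0.48 to 0.75, with a mean of -0.46. In MeA the range was -2.40 to 0.89 with a median of -0.44 and a mean of -0.39. In CeA it was -1.21 to 0.94 with a median of -0.41 and a mean of -0.31. PVN gave -0.88 to 0.63 with a median of -0.29 and a mean of -0.23, so that 5 region means lay below 0. The 2 remaining means lay above 0: BLA arrays spread from -0.65 to 1.08 around a median of 0.11 (mean 0.07), and Cg arrays from -0.73 to 0.62 around a median of 0.24 (mean 0.19).

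The second Ctsb probe had means of -0.31 in PVN, -0.39 in BLA, -0.55 in CeA, -0.57 in NAc, -0.04 in MeA, -0.28 in Cg and 0.16 in SON. It lay below 0 in 6 of 7 regions and above 0 in SON, the region in which the brightest probe was lowest. Its mean over the regions was -0.28 (SE 0.09) and, like the brightest probe, it missed the threshold (adjusted p = 0.424, limma over regions). The third probe pointed the other way, with a mean of 0.24 (SE 0.10, adjusted p = 0.709) and 0.02 in PVN, 0.74 in BLA, 0.22 in CeA, 0.55 in NAc, -0.24 in MeA, 0.23 in Cg and 0.12 in SON. The fourth, never above the empty spots, had a mean of -0.01 (SE 0.09) with 0.08 in PVN, 0.12 in BLA, -0.17 in CeA, -0.24 in NAc, -0.47 in MeA, 0.34 in Cg and 0.27 in SON. No Ctsb probe passed the test in a single region either, and the probe and region pair in SON had an adjusted p of 0.379 (limma within a region).

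Cathepsin S (Ctss, chr3:95526786-95556405), a cysteine protease typical of microglia and other antigen-presenting cells, had the clearest signal of the cathepsins, brighter than the empty spots in HAB on 65 and in LAB on 68 arrays of 70. Its log2 HAB/LAB was -0.69 ± 0.37 (SD, n = 10 arrays) in CeA, -0.58 ± 0.43 in BLA and -0.39 ± 0.34 in PVN. It was between -0.28 and -0.18 in SON, Cg and MeA and 0.05 ± 0.22 in NAc. In CeA all 10 arrays were below 0, from -1.23 over a median of -0.68 to -0.24, which is a mean difference of 1.62-fold. Without the CeA array that stood apart the mean was -0.77 ± 0.35 with 9 of 9 arrays below 0. Within CeA the adjusted p was 0.088, and 0.0827 without that array (limma with a dye term). Ctss passed there with the authors' log2 values (0.00747) and among the probes above the empty spots (0.032), but in no other setting tried. Over the regions the mean was -0.33 (SE 0.09), lower in 6 of 7 regions, with an adjusted p of 0.19 that ranged from 0.0654 to 0.544 over 19 alternatives. In MeA the dye orientations disagreed, with 0.29 for HAB in Cy3 and -0.66 for HAB in Cy5.

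Among the other cysteine proteases no probe passed limma over the regions or within a region. Cathepsin L (Ctsl), a broad endopeptidase, had a mean of 0.13 (SE 0.08) and region means of 0.26 in PVN, 0.13 in BLA, 0.13 in CeA, 0.01 in NAc, 0.37 in MeA, -0.20 in Cg and 0.21 in SON. It was brighter than the empty spots in HAB on 35 and in LAB on 32 arrays of 70, and lay above 0 in 6 of 7 regions. Cathepsin F (Ctsf), also above 0 in 6 regions, had a mean of 0.11 (SE 0.08) with 0.11 in PVN, 0.26 in BLA, -0.07 in CeA, 0.11 in NAc, 0.18 in MeA, 0.11 in Cg and 0.07 in SON. Cathepsin Z (Ctsz), a carboxypeptidase, lay below 0 in 6 regions with a mean of -0.10 (SE 0.09) and -0.12 in PVN, -0.11 in BLA, -0.29 in CeA, -0.38 in NAc, 0.33 in MeA, -0.13 in Cg and -0.01 in SON. The last pair were above the empty spots on at most 29 of 70 channels in either line. For Ctsz these were 9 or 10 of 10 arrays of each line in PVN, BLA and CeA, and 0 in NAc, MeA, Cg and SON.

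Cathepsin C (Ctsc), the dipeptidyl peptidase that activates granule serine proteases, had a brighter probe with -0.01 in PVN, -0.18 in BLA, -0.35 in CeA, 0.16 in NAc, -0.35 in MeA, 0.30 in Cg and 0.30 in SON. Its dimmer probe gave 0.07 in PVN, 0.00 in BLA, -0.68 in CeA, -0.10 in NAc, -0.03 in MeA, 0.03 in Cg and -0.26 in SON. Both were lowest in CeA, and in SON they lay on opposite sides of 0. The means over the regions were -0.02 (SE 0.09) and -0.14 (SE 0.09).

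Cathepsin H (Ctsh), an aminopeptidase, gave 0.15 in PVN, 0.15 in BLA, 0.01 in CeA, -0.36 in NAc, -0.14 in MeA, -0.06 in Cg and 0.16 in SON. Cathepsin K (Ctsk), best known from osteoclasts, gave 0.19 in PVN, 0.19 in BLA, -0.21 in CeA, -0.06 in NAc, -0.15 in MeA, 0.67 in Cg and 0.15 in SON. Legumain (Lgmn), which cleaves after asparagine and processes cathepsins, gave 0.44 in PVN, -0.25 in BLA, 0.04 in CeA, -0.03 in NAc, 0.07 in MeA, 0.10 in Cg and -0.05 in SON. These genes were above the empty spots on at most 11 of 70 channels in either line, and the 0.67 of Ctsk in Cg and the 0.44 of Lgmn in PVN were their largest values.

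The 5 cathepsins outside the listed genes had means over the regions from -0.185 (Ctsr) to 0.075 (Ctsq), and none passed. Ctsj, Ctsm, Ctsq and Ctsr belong to a group of rodent placental cathepsins, and Ctsw is found in cytotoxic lymphocytes. Ctsj, not above the empty spots on any array, gave 0.21 in PVN, -0.19 in BLA, 0.50 in CeA, -0.76 in NAc, -0.24 in MeA, 0.29 in Cg and -0.27 in SON. Ctsm gave 0.29 in PVN, 0.38 in BLA, -0.18 in CeA, -0.14 in NAc, -0.12 in MeA, -0.18 in Cg and -0.07 in SON. Single region values of these genes were as large as those of Ctsb, with both signs. Ctsq gave 0.15 in PVN, -0.22 in BLA, -0.04 in CeA, 0.35 in NAc, -0.10 in MeA, 0.54 in Cg and -0.16 in SON. Ctsr gave -0.76 in PVN, 0.15 in BLA, -0.38 in CeA, -0.18 in NAc, 0.30 in MeA, 0.04 in Cg and -0.47 in SON. Ctsw gave 0.20 in PVN, 0.08 in BLA, -0.11 in CeA, -0.54 in NAc, 0.33 in MeA, -0.26 in Cg and -0.08 in SON. Ctsq was detected most often among them, brighter than the empty spots in HAB on 27 and in LAB on 23 arrays of 70.

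Tripeptidyl peptidase 1 (Tpp1, chr7:105744811-105752282), the serine peptidase lost in late infantile neuronal ceroid lipofuscinosis, was lower in HAB mice in all 7 regions. The region means were -0.71 ± 0.53 (SD, n = 10 arrays) in PVN, -0.71 ± 0.84 in MeA, -0.59 ± 0.49 in CeA and -0.43 ± 0.54 in NAc. They were -0.37 ± 1.09 in Cg, -0.24 ± 0.54 in BLA and -0.06 ± 0.86 in SON. The mean over the regions was -0.45 (SE 0.09, adjusted p = 0.0167, limma over regions), and the neighbours in this order do not differ beyond their spread. In CeA all 10 arrays were below 0, from -1.52 over a median of -0.49 to -0.07, and without the CeA array that stood apart the mean was -0.66 ± 0.48 with 9 of 9 below 0. Within CeA the adjusted p was 0.189 (limma).

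In PVN 9 arrays of Tpp1 were below 0, from -1.66 over a median of -0.74 to 0.11, and in MeA also 9, from -2.03 over -0.66 to 0.72. In Cg and SON the arrays lay on both sides, with 4 of 10 above 0 in each. The probe was dim, brighter than the empty spots in HAB on 14 and in LAB on 21 arrays of 70, and in CeA on 0 HAB and 2 LAB arrays. By the linear limit it was above them on 37 arrays in HAB and 49 in LAB, and Tpp1 passed among the probes kept by that limit, whereas the log2 limit left it out of the test. Its single probe does not allow a second reading of the gene.

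The direction of Tpp1 held in each of 19 alternatives, with means from -0.67 to -0.39, but the call did not: adjusted p ranged from 0.00848 to 0.175. It was lost, among others, when replicate 1 (0.0802), replicate 2 (0.175) or replicate 3 (0.0698) of each orientation was left out, and without PVN (0.114), CeA (0.0532) or MeA (0.123).

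**Figure D3:**
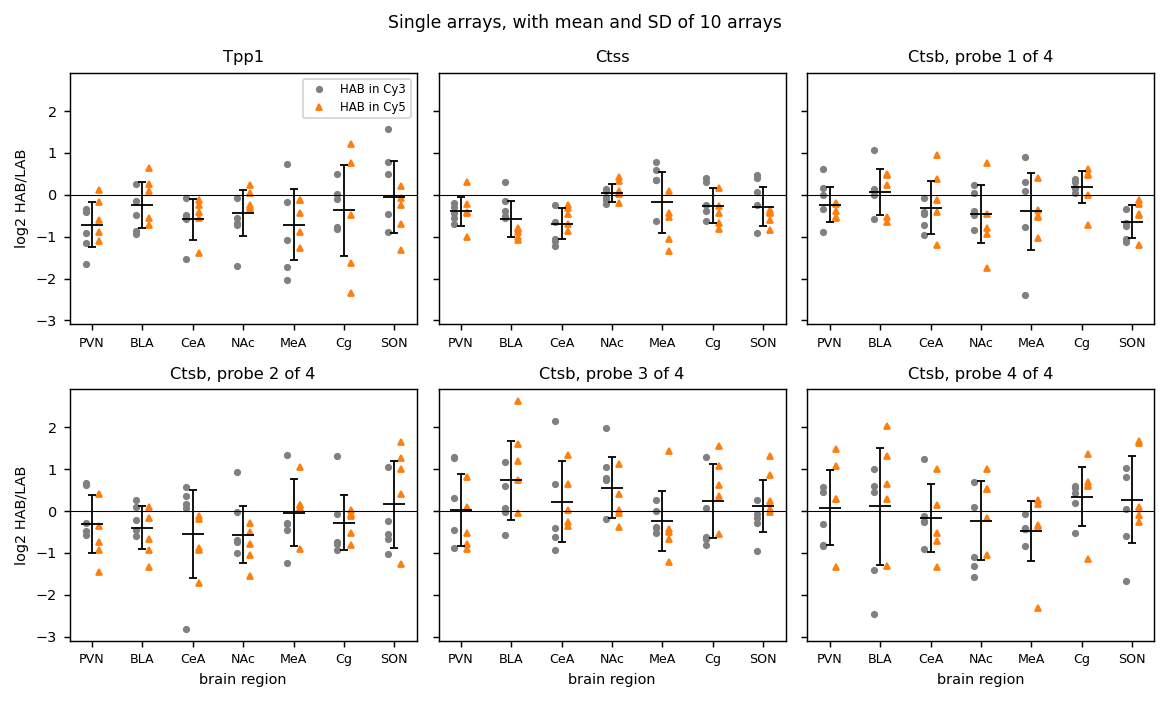
Log2 HAB/LAB of Tpp1, Ctss and the 4 Ctsb probes (panels) on each array by region (x axis), with circles for HAB in Cy3, triangles for HAB in Cy5, and the mean and SD of 10 arrays in black. Region means of Tpp1 are all below 0, those of Ctss in 6 regions, and the third Ctsb probe lies above 0 in 6 regions.

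Cathepsin D (Ctsd), the main aspartic protease of the lysosome, was -0.95 ± 0.74 (SD, n = 10 arrays) in NAc, where arrays ran from -2.64 over a median of -0.77 to 0.18 and 9 were below 0. It passed limma within that region (adjusted p = 0.0357), but not without background correction, with global loess without the block median, with print-tip loess or with the authors' log2 values. The probe was brighter than the empty spots in HAB on 1 and in LAB on 0 arrays of 70, none of them in NAc, so no fold is given. In CeA it was 0.37, in Cg 0.18, in PVN 0.13, in BLA 0.03, in SON -0.11 and in MeA -0.21. Cathepsin A (Ctsa), a serine carboxypeptidase that protects beta-galactosidase and neuraminidase, had a mean of -0.12 (SE 0.09) with -0.34 in PVN, -0.21 in BLA, -0.33 in CeA, -0.04 in NAc, 0.17 in MeA, 0.14 in Cg and -0.22 in SON.

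Among the glycosidases, beta-galactosidase (Glb1, chr9:114401078-114474379), which removes galactose from gangliosides and keratan sulfate, was lower in HAB mice in NAc. The arrays there ran from -1.19 over a median of -0.60 to -0.42, all 10 below 0, and the mean was -0.71 ± 0.26 (SD, n = 10 arrays), or 1.64-fold. The orientations agreed, at -0.69 and -0.73. The probe was above the empty spots on 5 arrays in HAB and 7 in LAB of NAc, and the adjusted p was 0.0164 (limma within NAc). Glb1 was -0.42 in Cg, -0.24 in PVN, -0.21 in CeA, -0.20 in MeA, -0.13 in SON and 0.00 in BLA, with a mean of -0.27 (SE 0.09, adjusted p = 0.413, limma over regions). The other 2 Glb1 probes did not show this in NAc: they were 0.07 and -0.17 there, with means of -0.07 and -0.02 over the regions.

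Neuraminidase 1 (Neu1), which removes sialic acid, gave -0.39 in PVN, -0.15 in BLA, -0.01 in CeA, -0.04 in NAc, -0.16 in MeA, -0.20 in Cg and -0.32 in SON, each below 0. Its mean over the regions was -0.18 (SE 0.08, adjusted p = 0.756), or -0.62 with the authors' log2 values (adjusted p = 0.265), and it was brighter than the empty spots in HAB on 1 and in LAB on 4 arrays of 70. The dimmer probe of beta-mannosidase (Manba) was above 0 in 6 regions with a mean of 0.18 (SE 0.08, adjusted p = 0.771), but the brighter, above the empty spots on 43 and 44 channels, was -0.03 (SE 0.08). Hexa, Gusb, Man2b1 and Naglu had means between -0.02 and 0.08. The sulfatases Arsa and Arsb had means of -0.14 and 0.03, and Arsb was brighter than the empty spots in HAB on 58 and in LAB on 56 arrays.

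Palmitoyl-protein thioesterase 1 (Ppt1, chr4:122836077-122859175), which removes fatty acids from proteins and is lost in infantile neuronal ceroid lipofuscinosis, was lower in HAB mice in PVN. Its brightest probe was -0.65 ± 0.29 (SD, n = 10 arrays) there, or 1.57-fold, and the arrays ran from -1.14 over a median of -0.72 to -0.17, all below 0. It was above the empty spots on 9 arrays in HAB and 10 in LAB of PVN, and the adjusted p was 0.0258 (limma within PVN), a call that was not made without background correction. MeA gave -0.52 ± 0.42 with 9 of 10 arrays below 0. The remaining regions lay between -0.19 (Cg) and 0.08 (SON), and the mean over the regions was -0.25 (SE 0.09, adjusted p = 0.565). The second probe, above the empty spots on at most 8 of 70 arrays in either line, was -0.12 in PVN and ranged from -0.47 in NAc to 0.46 in CeA.

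Prosaposin (Psap), the precursor of the saposins, was one of the brightest members, brighter than the empty spots in HAB on 65 and in LAB on 69 arrays. Its brightest probe ranged from -0.37 in CeA to 0.26 in SON with a mean of -0.10 (SE 0.08). The second Psap probe had a mean of 0.19 (SE 0.09) but was above the empty spots on 1 channel of each line. Acid ceramidase (Asah1), above them on 45 channels of each line, ranged from -0.25 in CeA to 0.35 in NAc. Acid sphingomyelinase (Smpd1) and lysosomal acid lipase (Lipa) had means of -0.06 and -0.13, and Lipa ran from -0.56 in Cg to 0.33 in NAc.

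LAMP1 and LAMP2, the abundant glycoproteins of the lysosomal membrane, had probes with region values on both sides of 0, and 1 of their 6 probes passed the F-test over regions. The second brightest Lamp1 probe (chr8:13159161-13175338) was -0.65 ± 0.44 (SD, n = 10 arrays) in CeA and -0.22 ± 0.56 in BLA, and was 0.43 ± 0.68 in NAc, 0.30 ± 0.52 in Cg and 0.49 ± 0.44 in SON. In CeA all 10 arrays were below 0, from -1.64 over a median of -0.56 to -0.16. Without the CeA array that stood apart the mean was -0.67 ± 0.47 with 9 of 9 below 0. The probe was above the empty spots on 1 array in HAB and 5 in LAB of CeA, and its adjusted p within that region was 0.128 (limma). It passed there with the authors' log2 values (0.0244), but in no other setting tried. Its line difference was unequal over the regions (adjusted p = 0.00101, limma F-test on 70 arrays), and across the settings tried this p ran from 6.46e-05 to 0.0831, passing in all but the set without replicate 5.

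The other Lamp1 probes lay on the same side in CeA with smaller values, at -0.29, -0.08 and -0.12. In NAc they were 0.22, 0.41 and -0.08, and in SON 0.15, 0.15 and 0.31. The brightest Lamp2 probe gave -0.26 in CeA, -0.27 in BLA, 0.09 in NAc and 0.17 in SON, while the dimmer gave 0.06, -0.12, 0.05 and -0.13. None of these probes passed the F-test.

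**Figure D4:**
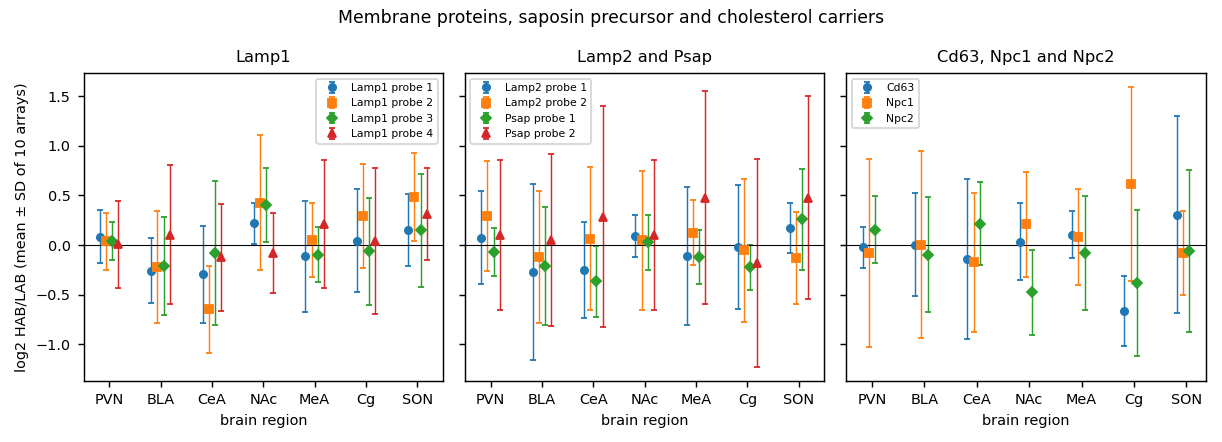
Mean log2 HAB/LAB with the SD of 10 arrays (y axis) by region (x axis) for the 4 Lamp1 probes, the Lamp2 and Psap probes, and Cd63, Npc1 and Npc2. All 4 Lamp1 probes lie below 0 in CeA and above 0 in SON, Cd63 is lowest in Cg at -0.67, and Npc2 is lowest in NAc at -0.48.

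The tetraspanin Cd63 was lower in HAB mice in Cg, at -0.67 ± 0.35 (SD, n = 10 arrays) or 1.59-fold, with arrays from -1.33 over a median of -0.65 to -0.05. It was above the empty spots on 8 arrays in HAB and 10 in LAB there, and the adjusted p within Cg was 0.0811 (limma). Cd63 passed there with the authors' log2 values (0.00381) and among the probes above the empty spots (0.0285), but in no other setting tried. The other regions ran from -0.14 in CeA to 0.31 in SON, where the orientations differed in sign (1.13 with HAB in Cy3, -0.52 with HAB in Cy5). Its F-test passed at an adjusted p of 0.0314, but the p was 0.0528 with array weights for each region. It was between 0.0747 and 0.26 without replicate 1, 2, 4 or 5, and 0.0868 with global loess without the block median. This F-test takes 1 array spread for all regions, and the SD of Cd63 ran from 0.21 in PVN to 1.00 in SON.

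The cholesterol carrier of the lysosomal lumen, Npc2, was -0.48 ± 0.43 (SD, n = 10 arrays) in NAc, from -1.26 over a median of -0.33 to -0.06. It was above the empty spots on 6 arrays in HAB and 3 in LAB there, with an adjusted p of 0.201 (limma within NAc). The region means were 0.15 in PVN, -0.10 in BLA, 0.22 in CeA, -0.48 in NAc, -0.08 in MeA, -0.39 in Cg and -0.06 in SON. Npc1, the membrane transporter that receives cholesterol from NPC2, was between -0.18 and 0.21 outside Cg, where it was 0.61. Scarb2, the receptor that carries glucocerebrosidase to lysosomes, ranged from -0.66 in BLA to 0.42 in CeA and was above the empty spots on at most 4 channels of 70.

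Pairs of probe and region were also counted by size and direction, without a test: a mean past 1.3-fold and every one of the 10 arrays on the same side. This held for 8 of 350 member pairs (2.29%), all lower in HAB, against 0.559% of all pairs counted lower and 0.956% in either direction. CeA had 3 of 50 member probes (Ctss, Tpp1, Lamp1), with 0.552% of all probes lower there. NAc had 2 (Glb1, Npc2), with a background of 1.35%. PVN (Ppt1, background 0.482%), Cg (Cd63, 0.824%) and SON (Ctsb, 0.237%) had 1 each. BLA and MeA had none, with 0.166% and 0.307% of all probes. Every member pair with all 10 arrays on 1 side was past 1.3-fold, and the smallest of them was Npc2 in NAc at -0.48. Of the 8 pairs, Ctsb in SON and Tpp1 in CeA were near or at the level of the empty spots. Lamp1 in CeA was above them on 1 array in HAB and 5 in LAB, and so near their level in HAB.

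**Figure D5:**
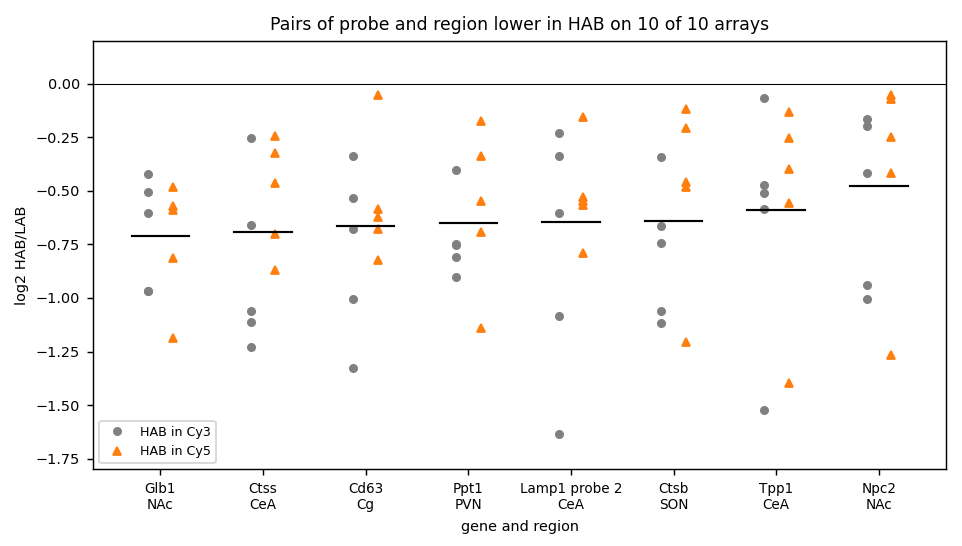
Log2 HAB/LAB on each of the 10 arrays (y axis) for the 8 pairs of gene and region (x axis) in which all arrays were lower in HAB, with circles for HAB in Cy3, triangles for HAB in Cy5 and the mean as a black line. Means run from -0.71 for Glb1 in NAc to -0.48 for Npc2 in NAc.

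By limma within a region, 3 of 350 member pairs passed: Glb1 and Ctsd in NAc and Ppt1 in PVN, all lower in HAB. With replicate 1, 2, 3, 4 or 5 of each orientation left out none passed, while 37 to 44 had an unadjusted p under 0.05 (limma), against 37 with all arrays. The share of all pairs at this unadjusted p was not counted, so these counts do not set the members apart from the array. Over the whole array 0.364% of pairs passed in either direction. The F-test over regions passed for 2 of 50 member probes (4%), below the 6.1% of all probes. In simulated data with an array spread for each region, 34.6% of the calls of this F-test were false.

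Other genes of the pathway were read from a second list. Of 68 listed cystatins, sorting and biogenesis factors, proton pump subunits and further lysosomal proteins, 47 had a spot, with 63 probes. None of them passed limma over the regions, and 4 (6.35%) had an unadjusted p under 0.05, the share of all probes being 6.33%. With the brightest probe of each gene, 26 were lower and 21 higher, with a median of -0.032. M6pr, the cation-dependent receptor that sorts lysosomal enzymes by their mannose phosphate tags, was -0.75 ± 0.39 (SD, n = 10 arrays) in CeA and -0.29 ± 0.15 in MeA, each with 10 of 10 arrays below 0 (the latter under 1.3-fold), and between -0.07 and 0.23 elsewhere. Without the CeA array that stood apart it was -0.82 ± 0.36 there, with 9 of 9 below 0. M6pr in CeA was the single pair counted among 441 of the pathway (0.227%), against 0.956% of all pairs in either direction. It was also 1 of 5 pathway probes past the F-test (7.94%, against 6.1% of all probes), with an adjusted p of 3.7e-05, the others being Atp6v0a1, Atp6v1b2, Gm2a and Laptm4b. Tfeb and Tfe3 had means of 0.12 (SE 0.08) and 0.02 (SE 0.08).

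The cystatins inhibit cysteine cathepsins. Cst3, the most widespread of them, had a mean of -0.03 (SE 0.08) for its brighter probe. Cstb, which acts inside cells, ranged from -0.67 in NAc to 0.48 in PVN, with an SD over arrays from 0.635 to 0.967.

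Markers of cell types rich in lysosomes were measured beside these genes, and their part in the results was not tested. Of 17 microglia probes (15 genes), 1 passed limma over the regions: Ly86, a secreted partner of a Toll-like receptor relative, at -0.39 (SE 0.08, adjusted p = 0.0272), lower in all 7 regions and -0.65 ± 0.64 in CeA (-0.68 ± 0.65 without the array that stood apart). Tyrobp, the brightest of the defining markers with P2ry12, was -0.06 (SE 0.08) and 0.10 in CeA (0.00 without that array), and P2ry12 was -0.04 (SE 0.08). Itgam, above the empty spots on 26 arrays in HAB and 27 in LAB, was lower in all 7 regions. Its mean was -0.20 (SE 0.08, adjusted p = 0.647, limma over regions), with -0.33 in CeA. By brightest probe, 9 of the 15 genes were lower in HAB and 6 higher. C1qa, C1qb, C1qc, Aif1 and Lyzs were above the empty spots on at most 7 of 70 channels. The median of the microglia list was -0.045, and its summed signal by region was 5030 to 11200 in HAB and 5660 to 11600 in LAB, lower in HAB in all 7 regions. Laptm5 is also among the pathway genes.

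Other lists differed in single regions in which members did. In NAc and Cg, the regions of Glb1, Npc2 and Cd63, the oligodendrocyte gene Cnp1 was -1.36 ± 0.40 and -0.99 ± 0.34 (SD, n = 10 arrays each), although the brightest probe of Mbp, which encodes myelin basic protein, was 0.46 ± 0.29 and 0.64 ± 0.38. Summed oligodendrocyte signal was 71900 in HAB and 124000 in LAB in NAc, and 54600 and 90100 in Cg. CeA was the region of Ctss, Tpp1 and the second Lamp1 probe. The brightest probes of Cnp1 and Mobp there were 0.69 ± 0.42 and 0.72 ± 0.27, and that of Mbp was -0.40 ± 0.42. Without the CeA array that stood apart these were 0.57, 0.64 and -0.53. The other Mobp probes did not share a side in CeA: in order of brightness they were -0.37, -0.33, -0.37, 0.49 and -0.05. The astrocyte list was also mixed, with medians of -0.064 in NAc and 0.166 in CeA. In these regions the brightest Gja1 probe was 0.57 ± 0.25 and -0.58 ± 0.38 (-0.68 without the CeA array that stood apart). The other Gja1 probes were 0.63 and 0.43 in NAc and -0.48 and 0.22 in CeA. The brightest Slc1a3 probe was -0.28 ± 0.36 in NAc and 0.33 ± 0.44 in CeA. Its second probe, above the empty spots on 52 arrays in HAB and 60 in LAB, was -0.20 and -0.47, on the other side in CeA. In BLA, where choroid plexus signal summed to 5520 in HAB and 12000 in LAB, no member pair was counted, and leaving BLA out gave means of -0.48 for Tpp1 and -0.29 for Ctss.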

How the data were processed

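RNA of tissue punches, pooled from 6 mice per line and region, was amplified and hybridized on 70 two-colour arrays. The authors scanned the arrays and quantified spots with QuantArray within a fixed circle. The deposited scanner files give mean intensity and local background per spot and channel, without background subtraction. The authors' deposited log2 ratios, normalized by global scaling and LOESS, cover 18867 spots and were used as an alternative. Their direction was set against the scanner values (r from 0.861 to 0.972).

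Here, intensities were corrected with normexp (offset 50, which makes fold changes smaller), normalized by loess within arrays (span 0.4) and by the median of each print block, and turned to log2 HAB/LAB with limma 3.58.1 in R 4.3.3. Control and empty spots were left out. Arrays were averaged per dye orientation and then per region, and limma was fitted to 7 region means, to the 10 arrays of each region with a dye term, and to all 70 arrays for the F-test. P-values were two-sided and adjusted by Benjamini-Hochberg over all 22824 probes, with a threshold of 0.05. Pairs of probe and region were counted at 1.3-fold with 10 of 10 arrays on 1 side. The arrays of a region repeat 1 pair of pools and the regions share their mice, so p-values are too small as a measure of the lines.

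The probe set was read from the spot names of the array's design, which can be old, and the brightest probe stood for a gene in set summaries. Values were named for all cathepsins, for members past a test or counted in a region, and for the 6 members with the smallest p. The members and lists were chosen with earlier results of these data known. Alternatives were other background corrections, other normalizations, the authors' values, dim-probe filters, each dye orientation, scan day, and left-out replicates or regions. Filters on the linear scale, array weights and the left-out CeA array were added after seeing the data. Scripts were tested on simulated data, where 1.68% of limma calls over the regions and 5.5% within a region were false. For the F-test 34.6% of calls were false with an array spread for each region, and 4.88% with 1 spread. With a spread for each region, it found 2% of changes of 0.5 log2 and 32% of changes of 1 log2. Some genes of the marker and pathway lists are not reported here.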

Additional observations from a re-analysis of the deposited data

Results flagged for a closer look

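By the F-test of limma, HAB minus LAB depended on the region for 2 of 50 member probes (4%), against 6.1% of all probes. The second Lamp1 probe passed at an adjusted p of 0.00101, with -0.65 in CeA and 0.49 in SON. Cd63 passed at an adjusted p of 0.0314, with -0.67 in Cg and 0.31 in SON. Both tests measure array error of pooled RNA and not the spread between mice. In simulated data with an array spread for each region, 34.6% of F-test calls were false. No log2 HAB/LAB value of the named probes lay far from the rest of its group in 48 groups examined, 32 of 7 region means and 16 of 5 arrays of a counted pair, where chance marks about 1 in 20.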

How the results depend on the processing

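The member median moved to 0.013 with HAB in Cy3 only. It was -0.07 with HAB in Cy5 only, and -0.069 to -0.032 with a replicate left out. From -0.046 it shrank to -0.014 without NAc, -0.024 with the mean of all probes per gene and -0.025 with the linear limit for dim probes. The count past limma over regions was 1 and became 0 with the authors' log2 values (7 at an unadjusted p under 0.05), with probes above the empty spots by the log2 limit only (2; 1 passed by the linear limit), with limma's trend (10), and without PVN (6), CeA (8) or MeA (9). It was 0 to 1 with a replicate left out, at 0 without replicate 1, 2 or 3 (7 or 8 at an unadjusted p under 0.05). Each dye orientation alone also gave 1, but Ctsr with HAB in Cy3 and the second Psap probe with HAB in Cy5. Tpp1 missed the threshold with the authors' values (-0.671), HAB in Cy3 only (-0.498), HAB in Cy5 only (-0.391), and without PVN (-0.4), CeA (-0.42) or MeA (-0.4). Its values were -0.511 to -0.404 with a replicate left out. Ctsb was 0.235 by the probe ranked 3 in brightness.

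Counted pairs went from 8 to 5 with global loess without the block median and to 5 with the authors' values, which cover 36 of 50 member probes, 10 of them on all arrays, and were 9 to 13 with a replicate left out, since fewer arrays had to share a side. Pairs past limma within a region went from 3 to 1 without background correction and to 6 with the authors' values, and were 0 with each replicate left out (37 to 44 at an unadjusted p under 0.05). For unadjusted counts of pairs, here and with the replicate block below, the share of all pairs was not counted. The 6 were Ppt1 in PVN, Ctss and the second Lamp1 probe in CeA, Glb1 and the second Ppt1 probe in NAc, and Cd63 in Cg. Probes past the F-test went from 2 to 1 with global loess without the block median, 4 with the authors' values, 4 with probes above the empty spots only and 1 with array weights by region, and were 0 to 2 with a replicate left out. The cause of these shifts was not tested.

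With the replicate number as a block, 0 pairs passed limma within a region (39 at an unadjusted p under 0.05). The numbers did not pair arrays: correlations of 35 same-numbered pairs ran from -0.051 to 0.042, and in 8 an array correlated best with its own number. By the log2 limit 15 and by the linear limit 32 of 50 member probes were above the empty spots on at least 35 arrays, which limits the values of the dim genes.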
